A study of Mus musculus with 22 samples.

Results

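The nuclear-encoded subunits of the mitochondrial respiratory chain and ATP synthase were followed in inguinal white adipose tissue (IWAT) next to a mammary tumor and in the opposite pad of the same lean or obese mice. Members were taken by gene symbol, by a rule written with earlier results of these data known: the Nduf a, b, c, s and v subunits of complex I, the Sdh subunits of complex II, listed Uqcr and Cox subunits of complexes III and IV, and every symbol starting with Atp5. The rule took 75 of the 23420 gene symbols in the count table, 36 in complex I, 4 in complex II, 8 in complex III, 10 in complex IV and 17 in complex V. Of these, 74 passed the filter on low counts and entered the tests among 14458 genes, and Ndufs5 was listed at 0 in all 22 libraries, where a count of 0 allows up to 3 counts (0.349 to 0.521 CPM, counts scaled to the same library size).

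The mice were C57Bl/6 wildtype females kept for 16 weeks on regular chow (lean, 5 mice) or on a high fat diet (obese, 6 mice). At about 20 weeks of age each mouse received E0771 cells, a mammary cancer line derived from a C57Bl/6 mouse, in Matrigel and PBS in the left inguinal pad, and PBS with Matrigel alone in the right pad. Both pads were collected 2 weeks later, after removal of the tumor with a thin margin and of the lymph node. For sequencing the authors left out the outermost fat, and each of the 22 bulk RNA libraries comes from 1 pad of 1 mouse. The tumor was always on the left, so side and tumor cannot be told apart. The authors report larger tumors in the obese than in the lean mice. Diet and tumor size therefore cannot be told apart in comparisons between the diets.

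Complexes I to IV pass electrons from NADH and succinate to oxygen, and complexes I, III and IV pump protons across the inner mitochondrial membrane. Complex V, the ATP synthase, lets these protons flow back and makes ATP. White adipocytes hold few mitochondria compared with brown or beige adipocytes, which use the same chain to make heat when the uncoupling protein Ucp1 is present.

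The libraries held 5759780 to 8598110 counts on genes, and the members took 0.555% to 1.11% of them. All 12 listed adipocyte markers were measured, and their summed level was 14273 to 19191 CPM in lean control pads, 9112 to 15782 in lean tumor-associated pads, 16232 to 28696 in obese control pads and 2213 to 14326 in obese tumor-associated pads. The brown and beige list of 10 genes summed to 77.2 to 293 CPM, 34.0 to 159 CPM, 41.7 to 55.7 CPM and 6.90 to 58.2 CPM in the same order. Summed proliferation markers (10 genes) were 82.0 to 332, 217 to 666, 189 to 363 and 668 to 2382 CPM, and 13 macrophage markers were 883 to 1855, 1942 to 4165, 1411 to 1953 and 2172 to 5675 CPM. Skeletal muscle markers (12 genes) stood at 2630 CPM in the control pad of obese mouse 1 and at 269 CPM in the tumor-associated pad of obese mouse 8, against 12.2 to 56.4 CPM elsewhere. B and T cell markers (9 genes) stood at 625 and 588 CPM in the control pads of obese mice 1 and 3 and at 154 CPM in the tumor-associated pad of obese mouse 3, against 6.87 to 80.5 CPM elsewhere. Mean summed levels in the order of groups given above were 7717, 16790, 8481 and 15274 CPM for fibroblast markers (9 genes), 717, 757, 1080 and 633 CPM for endothelium (7 genes), 2307, 2360, 1089 and 468 CPM for mammary epithelium (11 genes), and 1.07, 2.92, 25.6 and 377 CPM for a list of 10 germline genes that tumor cells can express, chosen after their values in these libraries were seen. Markers of red blood cells and of neutrophils summed to at most 87.0 and 10.7 CPM in any library. The part of these cell types in the member values was not tested, and in bulk tissue fewer cells of a type and less RNA per cell cannot be told apart.

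Per kilobase of annotated exon, Atp5b, the catalytic beta subunit of complex V, was the most abundant member in the lean control pad with a mean of 673 ± 135 CPM per kb (SD, n = 5). Cox8a and Cox4i1, subunits of cytochrome c oxidase, followed at 397 ± 92.8 and 385 ± 66.3 CPM per kb, closer to each other than their spread. At the low end stood Atp5s at 5.22, Ndufb2 at 6.50, Atp5sl at 6.83 and Atp5g1 at 7.05 CPM per kb. The annotated exon length was 4375 bp for Ndufb2 and 4912 bp for Atp5g1. The median of complex I members was 62.2 CPM per kb in this group, within a range of 6.50 to 239. Atp5b remained highest in the other groups, at 447 ± 55.8 CPM per kb (n = 5) next to the tumor in lean mice and at 500 ± 75.0 (control) and 455 ± 78.2 (tumor-associated) in obese mice (n = 6). Atp5s and Atp5sl match the Atp5 symbol rule but are now named Dmac2l and Dmac2 and are not subunits of the ATP synthase proper. Ndufa4 is counted here with complex I by its symbol, although it is now placed in complex IV.

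**Figure D1:**
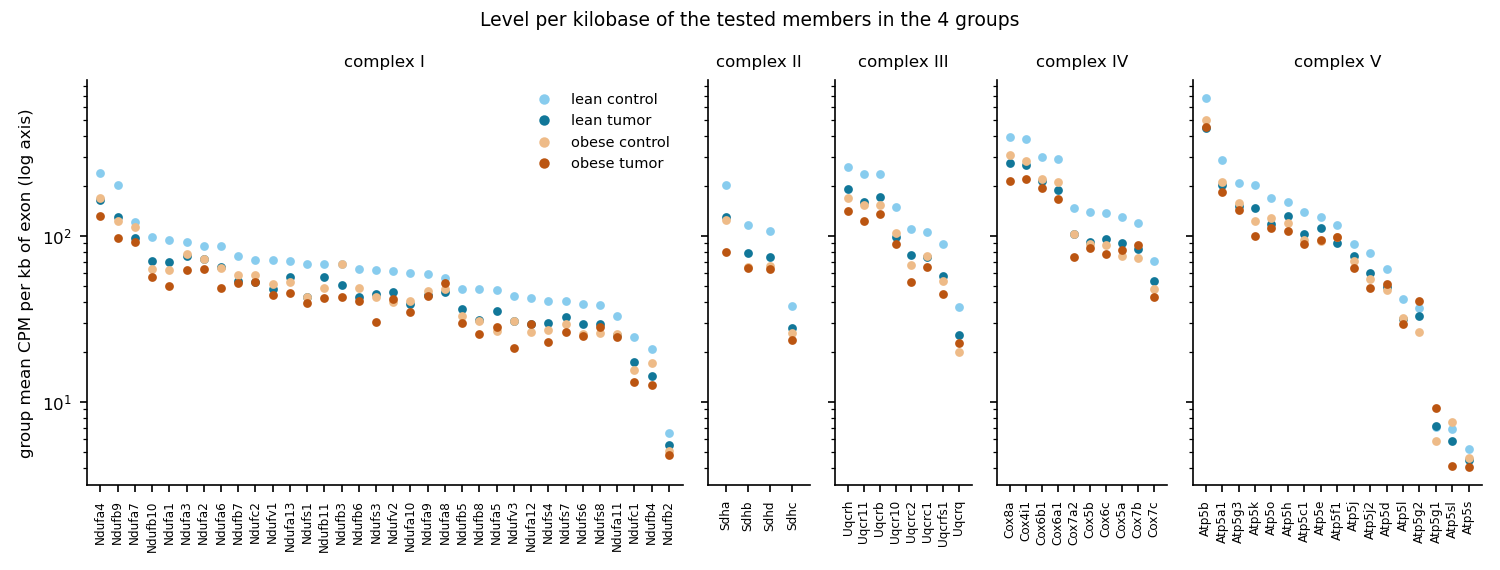
Group mean CPM per kilobase of exon (log axis) of 73 of the 74 tested members, one dot per group, ordered within each complex by the lean control mean. Light blue dots (lean control) lie highest for most genes, from 673 for Atp5b down to 5.22 for Atp5s, and Atp5g1 and Atp5g2 are highest in the obese tumor-associated pads.

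The windows around the start of 6 members are shown because 4 of them (Sdhb, Cox7b, Atp5g1 and Atp5g2) were the members whose tumor change differed between the diets, Sdha fell in all comparisons of 2 groups, and Atp5g3 encodes the same mature c subunit as Atp5g1 and Atp5g2. The windows come from RefSeq on GRCm38.p6 and run from 250 bases before to 50 bases after the start, 5′ to 3′ on the strand of the gene, and capitals mark matches to 4 motifs searched on both strands. These were NRF1 (GCGCATGC), ETS (CCGGAAG), YY1 (AAGATGGC) and the estrogen-related receptor ERR (TCAAGGTCA).
Sdhb (chr4:140961021-140961320, plus strand): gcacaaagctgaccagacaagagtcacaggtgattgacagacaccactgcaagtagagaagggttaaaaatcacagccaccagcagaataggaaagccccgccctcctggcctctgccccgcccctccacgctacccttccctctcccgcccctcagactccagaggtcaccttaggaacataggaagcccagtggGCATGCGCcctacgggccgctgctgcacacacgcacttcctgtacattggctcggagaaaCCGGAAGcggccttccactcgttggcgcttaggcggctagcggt
Atp5g2 (chr15:102670998-102671297, minus strand): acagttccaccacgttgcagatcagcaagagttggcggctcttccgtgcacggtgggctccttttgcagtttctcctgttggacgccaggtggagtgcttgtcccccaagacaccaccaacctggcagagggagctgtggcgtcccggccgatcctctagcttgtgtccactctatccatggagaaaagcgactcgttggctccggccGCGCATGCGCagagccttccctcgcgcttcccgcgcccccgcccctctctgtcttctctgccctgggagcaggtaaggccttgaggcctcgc
Atp5g3 (chr2:73911277-73911576, minus strand): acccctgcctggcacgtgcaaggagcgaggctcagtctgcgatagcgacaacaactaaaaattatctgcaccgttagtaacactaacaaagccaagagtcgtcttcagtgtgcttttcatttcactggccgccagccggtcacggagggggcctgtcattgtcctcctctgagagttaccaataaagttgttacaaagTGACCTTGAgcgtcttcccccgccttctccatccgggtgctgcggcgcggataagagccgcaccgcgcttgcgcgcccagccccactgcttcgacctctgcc
Atp5g1 (chr11:96075582-96075881, minus strand): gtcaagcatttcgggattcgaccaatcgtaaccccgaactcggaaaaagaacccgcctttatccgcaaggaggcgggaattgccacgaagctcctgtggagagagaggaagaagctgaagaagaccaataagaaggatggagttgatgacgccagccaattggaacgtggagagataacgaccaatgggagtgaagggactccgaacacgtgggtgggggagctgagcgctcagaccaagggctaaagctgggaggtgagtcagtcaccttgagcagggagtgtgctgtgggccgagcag
Cox7b (chrX:106015450-106015749, plus strand): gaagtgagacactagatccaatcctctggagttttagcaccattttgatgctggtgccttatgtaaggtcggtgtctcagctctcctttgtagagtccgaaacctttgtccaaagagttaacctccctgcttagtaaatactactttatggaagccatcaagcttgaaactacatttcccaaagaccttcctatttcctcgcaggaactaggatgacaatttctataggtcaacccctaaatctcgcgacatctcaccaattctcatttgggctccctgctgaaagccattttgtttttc
Sdha (chr13:74350191-74350490, minus strand): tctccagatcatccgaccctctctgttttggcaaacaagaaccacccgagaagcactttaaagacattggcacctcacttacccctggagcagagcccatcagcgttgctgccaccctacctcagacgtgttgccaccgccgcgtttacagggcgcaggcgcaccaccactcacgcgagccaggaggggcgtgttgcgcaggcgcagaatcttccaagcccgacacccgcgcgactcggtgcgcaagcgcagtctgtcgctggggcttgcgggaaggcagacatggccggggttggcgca

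The Sdhb window held an NRF1 match starting 54 bases before the start and an ETS match 7 bases after it. In Atp5g2, matches to NRF1 on the opposite strands overlapped, 42 and 40 bases before the start, and the Atp5g3 window held an ERR match 52 bases before the start. The Sdha, Cox7b and Atp5g1 windows held none of these letters. A window was found for 64 of the 75 members, 70 windows in all. NRF1 was matched in 14.3% of the member windows and in 2.71% of all 32851 windows, ETS in 22.9% and 8.86%, YY1 in 17.1% and 2.75%, and ERR in 2.86% and 0.423%. In obese against lean control pads, 7 of 10 tested members with an NRF1 match were lower, as were 41 of 53 without one. For ETS these counts were 12 of 16 with and 36 of 47 without a match, and for YY1 8 of 11 and 40 of 52. For ERR they were 2 of 2 and 46 of 61. Over all genes tested, 7.53% were lower in this comparison, and the other comparisons are not shown by motif.

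In lean mice, the question was how the pad next to the tumor differed from the opposite pad 2 weeks after injection. Subunits of every complex were lower in the tumor-associated pad: 35 of the 74 tested members fell and none rose (edgeR's quasi-likelihood test), while 0.913% of all genes tested were called lower and 3.27% higher. The fallers were 15 of 35 tested members of complex I, all 4 of complex II, 6 of 8 of complex III, 5 of 10 of complex IV and 5 of 17 of complex V. The median log2 fold change of the 74 members was -0.46, against 0.01 for all genes tested, and 73 of 74 estimates were negative. No member was higher at an unadjusted p under 0.05 either, and DESeq2 called 52 lower and 0 higher.

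Ndufb10, an accessory subunit of complex I, had the smallest p of the members. Its level was 67.6, 65.4, 79.8, 79.2 and 68.3 CPM in the control pads of lean mice 0, 2, 3, 6 and 9, and 48.5, 46.9, 53.7, 54.4 and 54.2 CPM in their tumor-associated pads. Every tumor-associated pad lay below every control pad, and the log2 fold change was -0.48 ± 0.09 (adjusted p = 0.00266) with its SE, as below. Ndufs1, the large iron-sulfur subunit at the NADH end of complex I, read 142, 188, 213, 246 and 162 CPM in control and 111, 104, 123, 143 and 124 CPM in tumor-associated pads, in the same order of mice. It was lower in the tumor-associated pad of each mouse, although the groups overlapped, with a log2 fold change of -0.65 ± 0.13 (adjusted p = 0.00572). Ndufv1, which binds NADH, changed by -0.57 ± 0.14.

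Other complex I members that fell in lean mice were the core subunit Ndufs3, and Ndufa4, Ndufa6, Ndufa9, Ndufa10, Ndufb4, Ndufb7, Ndufb8, Ndufb9, Ndufc2 and Ndufs4, with log2 fold changes from -0.63 (Ndufb9) to -0.42 (Ndufa9). The 20 tested complex I members that missed the threshold all had negative estimates.

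All genes of complex II fell in the lean tumor-associated pads. Sdha, the flavoprotein that oxidizes succinate, was at 434, 590, 668, 740 and 496 CPM in control and 348, 311, 380, 452 and 403 CPM in tumor-associated pads, and Sdhb, the iron-sulfur subunit, at 105, 129, 159, 156 and 112 and 80.0, 81.3, 98.8, 106 and 86.0 CPM. Mice 3 and 6 had the highest control values of both genes, and the groups overlapped through the control pad of mouse 0 and the tumor-associated pad of mouse 6. The log2 fold changes were -0.63 ± 0.15 (adjusted p = 0.021) for Sdha and -0.54 ± 0.11 (adjusted p = 0.0081) for Sdhb. The membrane anchors Sdhc and Sdhd changed by -0.45 ± 0.13 (adjusted p = 0.0474) and -0.50 ± 0.12 (adjusted p = 0.0227). The Sdhc call was lost in 15 of 22 fits that left out 1 library.

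In complex III, Uqcrfs1, the Rieske iron-sulfur protein, read 84.9, 130, 145, 147 and 99.0 CPM in control and 69.8, 59.4, 80.3, 97.2 and 81.2 CPM in tumor-associated lean pads. It was lower in every mouse, with overlapping groups and a log2 fold change of -0.64 ± 0.14 (adjusted p = 0.0142), and the core subunits Uqcrc1 and Uqcrc2 changed by -0.51 ± 0.12 and -0.51 ± 0.12. In complex IV, Cox4i1 was at 241, 261, 352, 346 and 274 CPM in control and 191, 176, 214, 231 and 214 CPM in tumor-associated pads, with no overlap and a change of -0.52 ± 0.12 (adjusted p = 0.0156). Cox5b changed by -0.60 ± 0.14 (adjusted p = 0.0171), whereas Cox5a missed the threshold at -0.52 ± 0.18 (adjusted p = 0.122). The small subunits Cox6a1, Cox6c and Cox7b fell as well, at -0.61 ± 0.16, -0.51 ± 0.13 and -0.52 ± 0.15. Cox7b was near the threshold (adjusted p = 0.0487), and its call was lost in 17 of 22 fits that left out 1 library.

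Complex V had the smallest share of fallers in lean mice. Atp5b was at 987, 1243, 1546, 1566 and 1109 CPM in control and 797, 732, 909, 1010 and 836 CPM in tumor-associated pads, a change of -0.59 ± 0.15 (adjusted p = 0.0297), and the alpha subunit Atp5a1 changed by -0.50 ± 0.11 (adjusted p = 0.0163). Atp5c1, the gamma subunit of the central stalk, and Atp5o, the stator subunit OSCP, changed by -0.43 ± 0.10 and -0.52 ± 0.13. The c subunits of the membrane ring are encoded by 3 genes. Of these, Atp5g3 fell by 0.45 ± 0.12 on the log2 scale (adjusted p = 0.0408), whereas Atp5g1 was at 0.02 ± 0.11 (adjusted p = 0.989) and Atp5g2 at -0.17 ± 0.16 (adjusted p = 0.77).

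Within single lean mice, 70 to 73 of the 74 members were lower in the tumor-associated pad, against 45.3% to 50.2% of all genes tested. The median difference of the members ranged from -0.23 in mouse 9 to -0.63 in mouse 3 on the log2 CPM scale. The number of called members was sensitive to single libraries: it was 4 without the control pad of mouse 3, 4 without that of mouse 6, 4, 5, 17 and 20 without the tumor-associated pads of mice 2, 0, 3 and 9, and 2 without both pads of mice 3 and 6, with median log2 fold changes of -0.35 to -0.54 across these and all other fits that left out libraries. The control pads of mice 3 and 6 had the highest levels of all 5 complexes. They held 260 and 293 CPM of the brown and beige list, against 246, 77.2 and 126 CPM in those of mice 2, 0 and 9. This list includes the chain isoforms Cox7a1 and Cox8b, and the part of brown and beige cells was not tested.

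**Figure D2:**
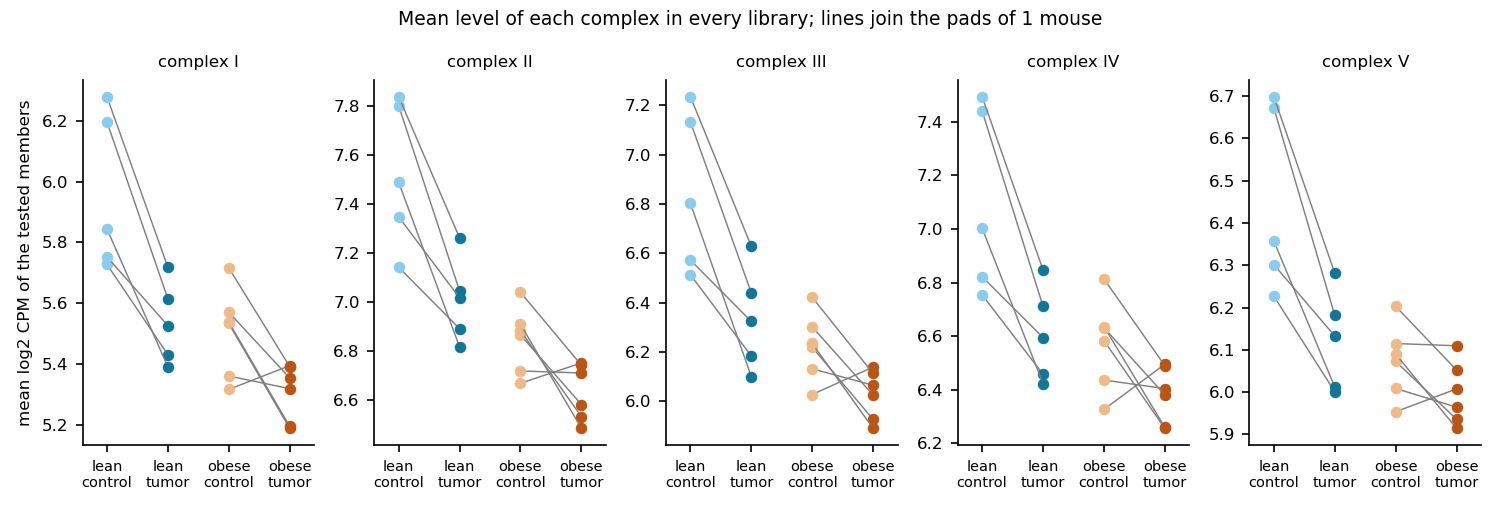
Mean log2 CPM of the tested members of each complex in every library, with grey lines joining the pads of 1 mouse (5 lean, 6 obese). All 5 lean lines fall in each complex, from a mean of 7.52 to 7.01 in complex II, while the obese lines start lower by the mean and run in both directions.

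**Figure D3:**
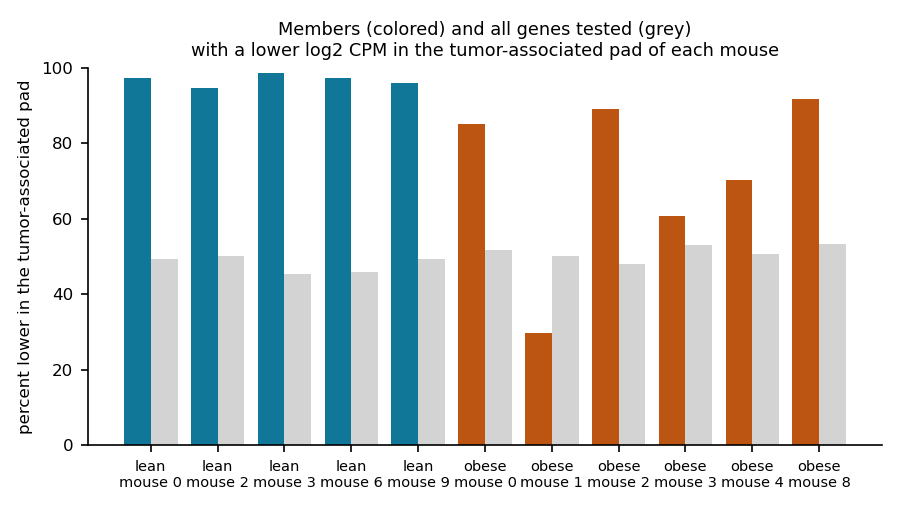
Percent of the 74 members (blue, lean; orange, obese) and of all genes tested (grey) with a lower log2 CPM in the tumor-associated pad of each mouse. Lean bars stand at 94.6% to 98.6%, obese bars at 29.7% to 91.9%, and grey bars at 45.3% to 53.2%.

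In obese mice the same comparison of pads gave many more changed genes in all, but fewer changed members. There, 18 members fell (24.3% of 74) and 2 rose (2.7%), while 27.7% of all genes tested were called lower and 26.8% higher. The share of members that fell was near that background, and the share that rose was below it. The median member changed by -0.17, against -0.02 for all genes. Complex I had 10 fallers of 35, complex II 1 of 4, complex III 3 of 8, complex IV 3 of 10 and complex V 1 of 17. The faller counted in complex V was Atp5sl, which is not a subunit of the ATP synthase proper. The risers were Atp5g1 and Atp5g2. The lists of fallers in the lean and the obese comparison, which share no library but come from 1 fit, had 11 members in common. These were 31.4% of the 35, while 24.3% of all 74 members fell in obese mice. They were 61.1% of the 18, while 47.3% of the 74 fell in lean mice. The overlap itself was not tested.

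Atp5g1 had the smallest p and rose. It ranged from 25.1 to 32.4 CPM with a median of 27.8 in obese control and from 40.5 to 50.2 CPM with a median of 44.9 in obese tumor-associated pads. Every tumor-associated pad was above every control pad, with a log2 fold change of 0.67 ± 0.10 (adjusted p = 2.77e-05). Atp5g2 ranged from 15.2 to 22.6 CPM with a median of 18.9 in control and from 23.3 to 45.9 CPM with a median of 27.0 in tumor-associated pads, also without overlap, and rose by 0.62 ± 0.15 (adjusted p = 0.00174), or by 0.37 without the tumor-associated pads of mice 0 and 4, whose adipocyte markers were lowest. Atp5g3, at 95.4 to 132 CPM with a median of 114 in control and 95.1 to 115 CPM with a median of 102 in tumor-associated pads, overlapped and was at -0.15 ± 0.11 (adjusted p = 0.27). The mature c subunits from these genes are identical and their transcripts are alike in the coding part, so reads that could come from several of them are uncertain. The beta subunit Atp5b was at -0.13 ± 0.14 (adjusted p = 0.418) and the stator subunit Atp5f1 at 0.00 ± 0.10 (adjusted p = 0.975).

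Sdha was the member of complex II that fell in obese mice. It ranged from 324 to 389 CPM with a median of 369 in control and from 174 to 288 CPM with a median of 239 in tumor-associated pads, with no overlap and a log2 fold change of -0.64 ± 0.14 (adjusted p = 0.000753). The other subunits of the same complex gave -0.02 ± 0.10 (adjusted p = 0.89) for Sdhb, -0.14 ± 0.12 for Sdhc and -0.05 ± 0.11 for Sdhd. In complex I, Ndufa6, an accessory subunit that binds the mitochondrial acyl carrier protein, ranged from 40.9 to 46.1 CPM with a median of 43.7 in control and from 28.9 to 38.8 CPM with a median of 31.9 in tumor-associated pads. Those groups did not overlap either, and the change was -0.40 ± 0.08 (adjusted p = 0.000548). Ndufv3, a small subunit of the NADH module, changed by -0.55 ± 0.14 (adjusted p = 0.00257), and the accessory subunit Ndufb3 by -0.66 ± 0.18 (adjusted p = 0.00486). The other complex I fallers were Ndufs3, Ndufb4, Ndufb9, Ndufa4, Ndufa3, Ndufa7 and Ndufs4, from -0.50 for Ndufs3 to -0.25 for Ndufs4.

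Uqcrc2, a core subunit of complex III, ranged from 112 to 135 CPM with a median of 129 in obese control and from 86.4 to 109 CPM with a median of 103 in obese tumor-associated pads. These ranges did not overlap and the change was -0.33 ± 0.11 (adjusted p = 0.0153). The hinge protein Uqcrh changed by -0.27 ± 0.10 (adjusted p = 0.0329), and Uqcrq, a small subunit, was at 0.18 ± 0.16 (adjusted p = 0.345). In complex IV, Cox8a ranged from 128 to 220 CPM with a median of 168 in control and from 85.0 to 145 CPM with a median of 118 in tumor-associated pads, overlapping, with a change of -0.52 ± 0.15 (adjusted p = 0.00686). Cox7a2 and Cox4i1 changed by -0.46 ± 0.14 (adjusted p = 0.00898) and by -0.35 ± 0.11 (adjusted p = 0.00972), and Cox5b was at -0.08 ± 0.13 (adjusted p = 0.619). Atp5sl, whose product takes part in complex I assembly, had the lowest estimate of the 74 members. It ranged from 12.9 to 27.4 CPM with a median of 16.1 in control and from 6.22 to 13.6 CPM with a median of 9.41 in tumor-associated pads, overlapping, with a change of -0.88 ± 0.19 (adjusted p = 0.00097). The control pads of mice 1 and 3 were highest, at 24.9 and 27.4 CPM. The change was -0.62 without the 4 libraries with high muscle or B and T cell markers, to which both belong. It was -0.46 without the libraries that carry -2 in their title, which also include both.

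Obese mice differed among themselves in this comparison. Members lower in the tumor-associated pad numbered 63, 66 and 68 of 74 in mice 0, 2 and 8, 52 in mouse 4, 45 in mouse 3 and 22 in mouse 1. In mouse 1 the median difference of the members was 0.10, and 0 of 10 complex IV members were lower. The control pad of this mouse held the high muscle markers given above, and the control pads of mice 1 and 3 held high B and T cell markers. Without the 4 libraries with high muscle or B and T cell markers the median member change was -0.31 and 29 members were called, and without the tumor-associated pads of mice 0 and 4, whose adipocyte markers were lowest, 12 were called. The count was 13 without the control pad of mouse 8 and 13 without the tumor-associated pad of mouse 0.

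The diets were then compared in the control pad, where no cancer cells were injected. Here the respiratory chain genes were lower in obese than in lean mice in every complex: 58 of 74 members were lower and none higher (none higher at an unadjusted p under 0.05 either, and 61 lower and 0 higher by DESeq2), against 7.53% and 9.54% of all genes tested by edgeR. Complex I had 25 of 35 members lower, complex II 4 of 4, complex III 8 of 8, complex IV 9 of 10 and complex V 12 of 17. The median log2 fold change was -0.50 for the members and 0.04 for all genes. This comparison uses the lean control libraries that also serve the lean tumor comparison, so the 2 results are not independent.

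Sdhb had the smallest p. Its obese control pads ranged from 65.6 to 85.1 CPM with a median of 74.1, below each of the lean control values of 105 to 159 CPM, and the log2 fold change was -0.83 ± 0.11 (adjusted p = 3.82e-05). Ndufb10 had a lowest value of 39.6 CPM and a median of 48.1 CPM in obese control pads, with the highest of them below each lean control pad, and a change of -0.64 ± 0.08 (adjusted p = 3.96e-05). Uqcrc2 read 155, 209, 245, 256 and 175 CPM in lean control pads and ranged as given above in obese ones, with no overlap and a change of -0.71 ± 0.11 (adjusted p = 0.000292).

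Core subunits of these complexes were lower as well. Sdha changed by -0.70 ± 0.14, Sdhc by -0.55 ± 0.12 and Sdhd by -0.70 ± 0.12. In complex I, Ndufs1 changed by -0.66 ± 0.12 (adjusted p = 0.00103) and Ndufv1 by -0.47 ± 0.13. The accessory subunit Ndufa5 had the lowest estimate of that complex at -0.81 ± 0.13 (adjusted p = 0.000293). Uqcrq, a small subunit of complex III, had the lowest estimate of the members at -0.90 ± 0.16 (adjusted p = 0.000945). It read 50.7, 59.8, 84.2, 95.2 and 51.0 CPM in lean control pads and ranged from 28.7 to 42.7 CPM with a median of 37.1 in obese ones, without overlap. Uqcrfs1 changed by -0.74 ± 0.14, Cox5a by -0.78 ± 0.17 (adjusted p = 0.00414) and Cox5b by -0.65 ± 0.13.

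In complex V, 12 members were lower and 5 did not pass the test. Atp5b ranged from 740 to 1123 CPM with a median of 997 in obese control pads, overlapping the lean ones, and changed by -0.43 ± 0.14 (adjusted p = 0.0433), and Atp5a1 changed by -0.43 ± 0.11 (adjusted p = 0.0101). Among the c subunit genes, Atp5g2 and Atp5g3 were lower at -0.49 ± 0.16 and -0.39 ± 0.12, and Atp5g1 missed the threshold at -0.28 ± 0.10 (adjusted p = 0.0564). Atp5sl was at 0.15 ± 0.20 (adjusted p = 0.666), the only positive estimate of the 74.

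Without both pads of lean mice 3 and 6, which had the highest levels, 16 members were called and the median change was -0.29. In that fit 13 of the log2 fold changes named for this comparison were over 1.5 times smaller, among them Uqcrq at -0.56 (adjusted p = 0.015), Cox5a at -0.46 (adjusted p = 0.109) and Atp5b at -0.22 (adjusted p = 0.443). Without the libraries with high muscle or B and T cell markers 34 were called, with a median of -0.42.

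In the tumor-associated pads, obese mice had 25 members lower (33.8% of 74) and 1 higher than lean mice, against 22.4% and 24.7% of all genes tested, and the median member difference was -0.24, against 0.03 for all genes. Complex I contributed 11 of the lower members, complex II 2, complex III 5, complex IV 3 and complex V 4. Sdha, at 311 to 452 CPM in lean and 174 to 288 CPM in obese tumor-associated pads, did not overlap and differed by -0.71 ± 0.14 (adjusted p = 0.00051). Ndufa6, with values of 39.8 to 48.5 CPM in lean and 28.9 to 38.8 CPM in obese pads, changed by -0.41 ± 0.09 (adjusted p = 0.000774), and Uqcrc2 by -0.54 ± 0.11 (adjusted p = 0.000875).

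Atp5g1 was the member that was higher in obese tumor-associated pads. It read 31.7, 33.6, 39.0, 38.9 and 32.7 CPM in the lean and ranged from 40.5 to 50.2 CPM with a median of 44.9 in the obese ones, without overlap, and differed by 0.36 ± 0.10 (adjusted p = 0.00566). Sdhb, Uqcrfs1 and Cox4i1 were lower, with differences of -0.31 ± 0.11 (adjusted p = 0.0245), -0.34 ± 0.14 (adjusted p = 0.0461) and -0.28 ± 0.11 (adjusted p = 0.0463), while Atp5b was at 0.03 ± 0.14 (adjusted p = 0.894). Other lower members were the core subunit Ndufs3 at -0.56 ± 0.13, Cox7a2 at -0.46 ± 0.15 and Atp5k, a small subunit of the membrane part of complex V, at -0.56 ± 0.15. The number of called members was 15 without the tumor-associated pad of lean mouse 3, 15 without that of lean mouse 6, 16 without that of obese mouse 0 and 15 without that of obese mouse 2.

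**Figure D4:**
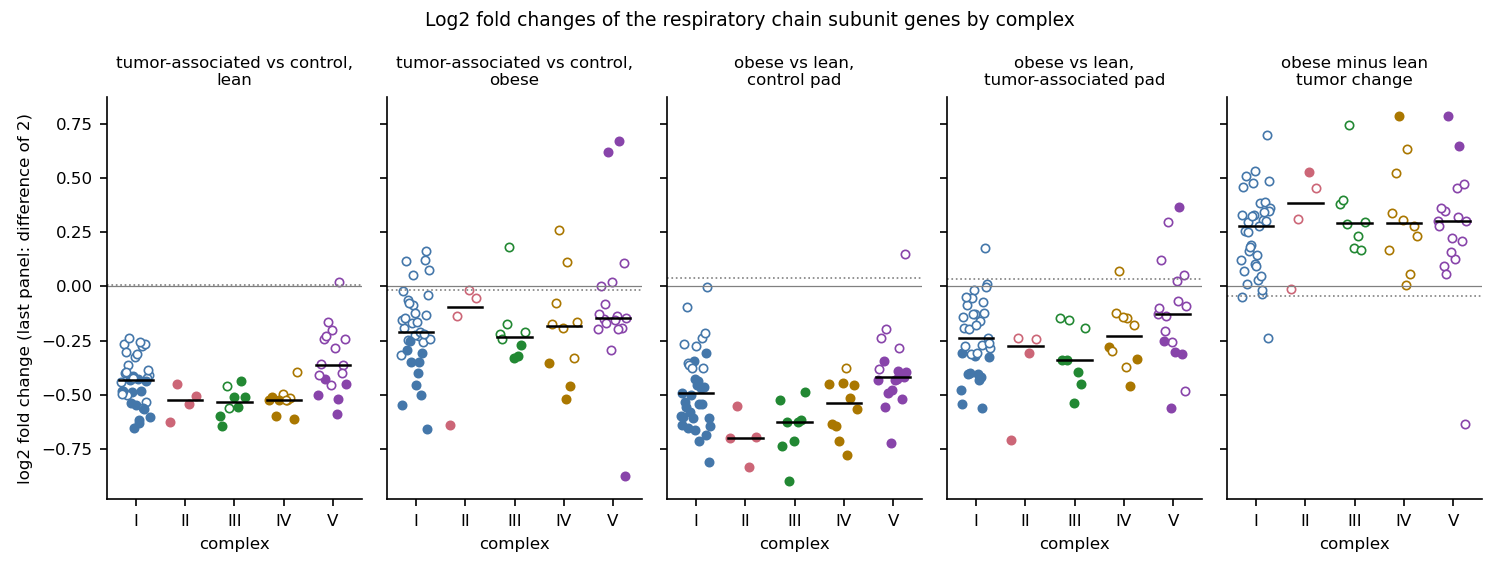
Log2 fold changes of the 74 members by complex in the 5 comparisons (last panel: obese minus lean tumor change), with filled circles for an adjusted p under 0.05, black bars for the median of a complex and a dotted line for the median of all genes tested. Most members lie below 0 in the first 4 panels, around medians of -0.46, -0.17, -0.50 and -0.24, and above 0 in the last, around 0.30.

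Whether the tumor change itself differed between the diets, which also differed in tumor size, was tested as the difference of the 2 fold changes. It was positive, that is, less of a fall or more of a rise in obese mice, for 68 of 74 members, with a median of 0.30 against -0.04 for all genes tested. Only 4 members passed the threshold, all of them positive (Sdhb, Cox7b, Atp5g1 and Atp5g2), while 2.58% of all genes were called positive and 2.34% negative, and 22 of the 74 had an unadjusted p under 0.05. All 4 were near the threshold.

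Sdhb had the range 105 to 159 CPM in the control and 80.0 to 106 CPM in the tumor-associated pads of lean mice, against 65.6 to 85.1 and 66.5 to 76.3 CPM in those of obese mice. It fell in lean mice, the estimate in obese mice was -0.02, and the difference was 0.53 ± 0.15 (adjusted p = 0.0494). Cox7b, a small subunit of cytochrome c oxidase, had the ranges 83.6 to 159, 73.7 to 94.9, 67.2 to 83.3 and 76.1 to 113 CPM in the same order, and changes of -0.52 in lean and 0.26 in obese mice. The difference for Cox7b was 0.78 ± 0.20 (adjusted p = 0.0463).

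Atp5g1 lay at 28.0 to 38.5 CPM in lean control pads, 31.7 to 39.0 CPM in lean pads with a tumor, 25.1 to 32.4 CPM in obese control pads and 40.5 to 50.2 CPM in obese pads with a tumor, with a difference of 0.65 ± 0.14 (adjusted p = 0.0373). For Atp5g2 the ranges were 22.6 to 32.6, 21.2 to 26.6, 15.2 to 22.6 and 23.3 to 45.9 CPM, and the difference was 0.79 ± 0.22 (adjusted p = 0.0474, or 0.0603 with the mouse as a replicate block). The differences for Sdha and Ndufa6, which fell in both diets, were -0.01 ± 0.20 and 0.03 ± 0.12 and did not pass the test. DESeq2 called 15 members in this comparison, the fit with the mouse as a replicate block called 7, and edgeR without the filter on low counts called 0. Without 1 library the count was 0 for the control pads of lean mice 0, 3 and 6 and of obese mice 0 and 4 and for the tumor-associated pads of lean mice 0, 2, 3 and 9 and of obese mice 0 and 2, 1 for the control pads of lean mouse 2 and obese mice 1, 3 and 8, 2 for the control pad of lean mouse 9, and 13 for the tumor-associated pad of obese mouse 1. Proliferation markers were highest in the obese tumor-associated pads, as given above, and their part in this difference was not tested.

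**Figure D5:**
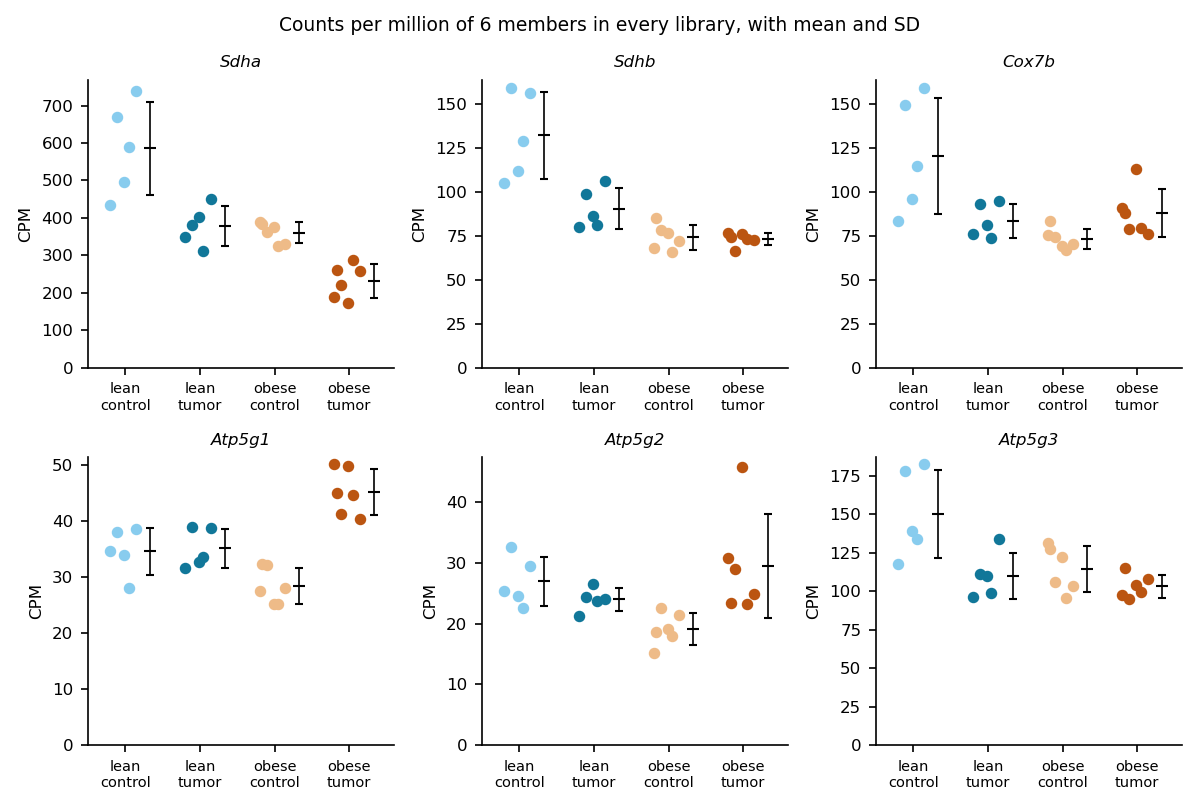
CPM of 6 members in every library of the 4 groups, with the group mean and SD in black (n = 5, 5, 6 and 6). By the mean, Sdha is highest in lean control and lowest in obese tumor-associated pads, Sdhb and Cox7b are highest in lean control pads, and Atp5g1 and Atp5g2 are highest in the obese tumor-associated pads, at 40.5 to 50.2 and 23.3 to 45.9 CPM.

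Genes around the chain were followed through lists of their own, each read against the share of all genes tested that edgeR called. That background was 0.913% lower and 3.27% higher in lean tumor-associated pads, 27.7% and 26.8% in obese ones, and 7.53% and 9.54% between control pads. Of 43 tested assembly factors, 1 fell in the lean tumor-associated pads (2.33%). In the obese ones, 11 fell and 4 rose (25.6% and 9.3%, near and below the background). Between control pads, 8 were lower in obese than in lean mice (18.6%). The faller in lean mice was Foxred1, a complex I factor, at -0.39 ± 0.11 (adjusted p = 0.0408). Surf1, needed to assemble complex IV, and Acad9, needed for complex I, changed by -0.63 ± 0.14 (adjusted p = 0.000789) and -0.46 ± 0.10 (adjusted p = 0.00104) in obese mice. Ecsit, another complex I factor, was at -0.50 ± 0.17 in lean mice. The median assembly factor changed by -0.24 in lean and 0.01 in obese tumor-associated pads.

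Among 11 tested subunits and tissue isoforms outside the symbol rule, 2 fell in lean tumor-associated pads (18.2%), 2 fell and 1 rose in obese ones (18.2% and 9.09%, both below the background), and 4 were lower in obese control pads (36.4%). Cyc1, cytochrome c1 of complex III, changed by -0.72 ± 0.16 (adjusted p = 0.0155) in lean mice and by -0.83 ± 0.16 (adjusted p = 0.00114) between the control pads. Ndufab1, the acyl carrier subunit, changed by -0.60 ± 0.17 in lean and -0.53 ± 0.16 in obese mice. Its lean call (adjusted p = 0.047) was lost in 14 of 22 fits that left out 1 library. Atpif1, the inhibitor of the ATP synthase, rose in the obese tumor-associated pads: it ranged from 30.0 to 43.9 CPM with a median of 36.8 in control and from 58.4 to 80.9 CPM with a median of 67.4 in tumor-associated pads, without overlap, a change of 0.88 ± 0.10 (adjusted p = 3.58e-06). Cox8b and Cox7a1, isoforms of brown fat and muscle, were lower in obese than in lean control pads, at -2.94 ± 0.52 (adjusted p = 0.000669) and -1.49 ± 0.48 (adjusted p = 0.0367). In the edgeR fit without both pads of lean mice 3 and 6, Cox7a1 was at -0.84 (adjusted p = 0.299). Ucp1 between all control pads was at -4.94 ± 0.95 (adjusted p = 0.00139).

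Of 17 tested regulators of mitochondrial biogenesis, 1 fell in lean tumor-associated pads (5.88%). In obese ones, 2 fell and 4 rose (11.8% and 23.5%, below and near the background). In obese control pads, 3 were lower and 1 higher (17.6% and 5.88%). Ppargc1a, a coactivator that drives mitochondrial gene expression, was at 8.13, 21.9, 18.5, 24.6 and 18.0 CPM in lean control pads and ranged from 4.45 to 7.18 CPM with a median of 5.30 in obese control and from 0.481 to 3.49 CPM with a median of 1.90 in obese tumor-associated pads. The difference between the control pads was -1.73 ± 0.37 (adjusted p = 0.00349) and the change in obese tumor-associated pads -1.52 ± 0.39 (adjusted p = 0.00281). In lean mice it missed the threshold at -1.08 ± 0.39 (adjusted p = 0.137). Esrra, a nuclear receptor that works with it, changed by -0.40 ± 0.11 in lean mice (adjusted p = 0.045, or 0.0728 with the mouse as a replicate block) and by -0.48 ± 0.11 (adjusted p = 0.00456) between control pads, and Esrrg by -1.53 ± 0.39 in obese mice. Pprc1, a related coactivator induced in growing cells, rose in obese tumor-associated pads by 1.29 ± 0.19 (adjusted p = 3.90e-05).

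In the list of ubiquinone synthesis and electron entry, 4 of 19 tested genes fell in lean tumor-associated pads (21.1%), 7 fell and 2 rose in obese ones (36.8% and 10.5%, above and below the background), and 4 were lower in obese control pads (21.1%). Coq9, needed to make ubiquinone, fell in both diets, at -0.68 ± 0.15 (adjusted p = 0.0118) and -0.86 ± 0.14 (adjusted p = 6.51e-05). Etfdh, which passes electrons from fatty acid oxidation to ubiquinone, changed by -0.54 ± 0.14 (adjusted p = 0.0334, or 0.0746 with the mouse as a replicate block) and -0.65 ± 0.13, while Pdss1, which makes the ubiquinone side chain, rose in obese mice by 1.54 ± 0.26 (adjusted p = 0.000114). Of 14 carriers and channels, edgeR called none in lean tumor-associated pads, where 6 were lower and 1 higher at an unadjusted p under 0.05, DESeq2 called 0 and Slc25a11 and Mpc2 had the smallest p at -0.25 ± 0.09 and -0.70 ± 0.25, while 5 fell and 6 rose in obese ones (35.7% and 42.9%). There Mpc2, a subunit of the mitochondrial pyruvate carrier, changed by -0.97 ± 0.23, and Slc25a13, the aspartate and glutamate carrier, and Vdac3, a channel of the outer membrane, rose by 1.82 ± 0.29 and 0.53 ± 0.12.

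Ribosomal proteins were counted beside the chain. Of 76 mitochondrial ribosomal proteins, edgeR called none in lean tumor-associated pads, where 15 were lower and 0 higher at an unadjusted p under 0.05 and DESeq2 called 4 lower. Of the 76 estimates there, 73 were negative, with a median of -0.21. In the obese ones 8 fell and 17 rose (10.5% and 22.4%, below and near the background), and the median change was 0.14. Between control pads, 6 were lower in obese mice and 0 higher (7.89% and 0%, near and below the background). Of those estimates 60 were negative, with a median of -0.15. Of 85 tested symbols of the cytosolic ribosomal pattern, which includes S6 kinases, edgeR called none in lean tumor-associated pads, where 2 were lower at an unadjusted p under 0.05 and DESeq2 called 1, and 4 fell and 67 rose in obese ones (4.71% and 78.8%). With the kinases and a ribosomal binding protein left out, a choice made after the values were seen, 64 of 74 rose there, with a median of 0.52. The 13 mitochondrially encoded subunits were not analysed here.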

How the data were processed

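RNA from 22 inguinal pads of 11 mice was sequenced. The authors checked reads with FastQC, used prinseq for trimming, aligned to mm10 by STAR 2.4.0f and made raw gene counts with HTSeq. These counts were deposited as 1 table, whose strand setting and gene annotation are not given in the sources used here. Summary lines of HTSeq that name no gene held 57.0% to 65.9% of the table per library, 38.5% to 48.8% as reads in no feature, and were left out. Every column was mapped to its sample by its title, and all groups come from the labels. All column names carry -2 but only some titles do, and its meaning is not given.

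Counts were tested with edgeR 4.0.16 (R 4.3.3, TMM factors, quasi-likelihood F test) in a single fit with 4 group means over all 22 libraries. Genes were filtered by filterByExpr, and p-values were adjusted by Benjamini-Hochberg over the 14458 genes kept, with a threshold of 0.05. Fold changes are log2 with their standard error, and all tests are two-sided. Levels are CPM after TMM, or log2 CPM with a prior count of 2 for complex means. Levels per kilobase use merged exons of GENCODE M21 (GRCm38). The 2 comparisons of pads and the 2 comparisons of diets share libraries with one another and with the difference between diets. Positions of promoter windows come from RefSeq GRCm38.p6.

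The values of 1 member are not reported here, although it is counted with the others. The members and gene lists were chosen with earlier results of these data known. Named members were core subunits of each complex, the 2 smallest p and the largest p per complex in the obese comparison of pads, the 3 smallest p in each other comparison, called members moving against the majority, and the 2 genes with the smallest p of each pathway list per comparison of pads. Any others were named after their values were seen (Ucp1, Cox8b, Cox7a1, the highest and lowest members per kilobase, and further members that passed the test). Lists of assembly factors, other subunits and isoforms, biogenesis regulators, ubiquinone and electron entry, carriers, ribosomal proteins and the cell markers given in the text were described by counts and medians.

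Same-numbered pads come from the same mouse. Their deviations from the group means correlated with a median r of 0.508 over 5 lean pairs, all 5 over 0.1, and 0.168 over 6 obese pairs, 4 over 0.1. The design without the mouse is the main one, and the fit with the mouse as a replicate block is an alternative. Other alternatives were DESeq2 1.42.0, 3 other scalings, 2 other filters, the compared groups alone, leaving out each library, each mouse or sets of libraries, and removing GC and length trends (as offsets in edgeR). The last 3 kinds, other than single libraries and those with -2 in their title, were added after seeing the data. No 2 libraries of a group agreed within sampling noise. The test was run on simulated counts before use. At 5759780 to 8598110 gene counts per library, zero counts of a gene in a library allow at most 3 counts, and intervals and floors of this kind cover counting error only. Of the members that share exonic sequence with other annotated genes, the shared part was at least 10% in Atp5f1, Atp5j, Atp5l, Atp5o, Cox5a, Ndufa13, Ndufa2, Ndufb11, Ndufb5, Ndufb6, Ndufb9 and Uqcrc2, and smaller in others, among them Atp5a1, Ndufs1, Ndufs3 and Uqcrb. Their counts are uncertain where strand was not used, and those of Atp5o, Ndufb2, Ndufb8 and Ndufb9, which share sequence on the same strand, also where it was.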

Additional observations from a re-analysis of the deposited data

Results flagged for a closer look

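In the tumor-associated pad of obese mouse 4, 4 named members stood above the other 5 obese tumor-associated pads by more than Dixon's 95% limit for a group of 6. Atp5b read 1171 CPM there (next highest 861), Atp5g2 45.9 CPM (30.8), Cox5b 95.2 CPM (78.4) and Ndufs1 141 CPM (110). This pad also had the lowest adipocyte marker sum, 2213 CPM, and the highest proliferation marker sum, 2382 CPM. Its sum of the germline genes, chosen after their values were seen, was the highest of all libraries at 999.7 CPM. Its fibroblast marker sum was the lowest at 5237 CPM. The part of all these markers in the member values was not tested. Ndufv3 read 84.2 CPM in the control pad of obese mouse 8 (next highest 63.7). Of 136 groups of values examined, 5 passed this limit (3.68%), and chance alone gives about 1 in 20 groups.

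The change next to the tumor differed between obese and lean mice, by the test of the difference itself (edgeR's quasi-likelihood test), for Atp5g1 at 0.65 ± 0.14 (adjusted p = 0.0373), Atp5g2 at 0.79 ± 0.22 (adjusted p = 0.0474), Cox7b at 0.78 ± 0.20 (adjusted p = 0.0463) and Sdhb at 0.53 ± 0.15 (adjusted p = 0.0494), as log2 differences. With the mouse as a replicate block Atp5g2 missed the threshold (adjusted p = 0.0603), and the count of 4 fell to 0 when any 1 of 11 libraries was left out.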

How the results depend on the processing

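Alternatives were run gene by gene for 125 log2 fold changes. Of the 5690 alternative values for these, 631 missed a threshold that the value in the report had passed. None of the 125 that had been called changed direction, and the estimates that changed sign had missed the threshold in the report. The lean comparison of pads gave 2 to 48 called members when single libraries or mice were left out (35 in the report) and 2 without lean mice 3 and 6. The obese comparison gave 12 to 27 (20 in the report), 33 without the libraries with -2 in their title, 12 without those with the lowest adipocyte markers and 45 with GC and length trends removed and the mouse as a replicate block. GC and length explained 0.279% to 2.54% of the variance, and members have a median exon length of 1011 bp against 3310 bp for all genes tested. The control pads gave 40 to 61 (58), 16 without lean mice 3 and 6, and 34 without libraries of high muscle or B and T cell markers. The tumor-associated pads gave 15 to 30 (26), 40 with upper-quartile factors, 13 without lean mice 3 and 6 and 17 without the libraries lowest in adipocyte markers. The difference between diets gave 0 to 13 (4), 15 with DESeq2, 0 without a filter on low counts, 2 without the -2 libraries, 0 without lean mice 3 and 6 and 0 without the libraries lowest in adipocyte markers. With the mouse as a replicate block, the count was 43 in lean and 25 in obese mice and 7 for the difference. Upper-quartile factors moved the calls over all genes from 132 lower and 473 higher to 199 and 382 in the lean comparison, and from 1088 and 1380 to 1446 and 1068 between control pads, and DESeq2 gave 295 and 623 in the lean comparison. Library totals alone moved the difference from 338 and 373 to 398 and 282. The cause of these shifts was not tested, apart from the smaller number of samples where libraries were left out. Among those estimates, Atp5f1 in the obese comparison of pads gave -0.060 with upper-quartile factors, -0.00028 with DESeq2, -0.00032 with RLE factors, -0.035 with at least 10 counts in every library, -0.15 without the -2 libraries, -0.065 without high muscle or B and T cell markers, -0.086 without low adipocyte markers, -0.091 with GC and length trends removed and -0.065 to 0.036 without single libraries or mice. Atp5b between tumor-associated pads gave -0.075 (upper quartile), -0.027 (at least 10 counts), -0.081 (-2 libraries), -0.096 (low adipocyte markers) and -0.081 to 0.092 (single libraries or mice). Atp5g1 in lean mice gave -0.011 with upper-quartile factors, -0.049 with GC and length trends removed and -0.045 to 0.063 without single libraries or mice. Atp5sl between control pads gave -0.18 without the -2 libraries, -0.18 without high muscle or B and T cell markers and -0.015 to 0.23 without single libraries or mice. For the difference between diets, Ndufa6 gave -0.010 with library totals, -0.044 without lean mice 3 and 6, -0.048 with GC and length trends removed and -0.040 to 0.087 without single libraries or mice, and Sdha gave 0.13 without low adipocyte markers, 0.029 with GC and length trends removed and -0.11 to 0.078 without single libraries or mice. Without single libraries or mice, Sdhb gave -0.066 to 0.024 in the obese comparison of pads.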
